A study of Rattus norvegicus and Mus musculus with 18 samples.

Results

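The 34 genes described here encode the enzymes, transporters and regulators of glycolysis and the oxygen-sensing machinery with some of its targets. They were taken by symbol from the mouse table, and all 34 were found among its 49548 genes. Of these, 33 reached at least 1 TPM (a gene's share of the library's transcripts, corrected for transcript length) in at least 3 of the 6 mouse libraries and were tested among 15982 genes; Car9, which did not, is given by level. The mouse libraries came from skin wounds, and the rat libraries from skin wounds and from inter-follicular epidermis. They were made with SMART-seq2 (full-length cDNA amplification of polyadenylated RNA) from total RNA of homogenised tissue. The comparison was between 3 mouse wound epidermis and 3 mouse wound dermis libraries, both taken 1 day after the scab detached. The labels give no strain, age, genotype or drug for these mice, do not tell whether replicates are different animals, and name no measurement of oxygen. P-values therefore measure the spread between these libraries, which may be technical.

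Glycolysis splits glucose to pyruvate in the cytosol, and lactate dehydrogenase turns pyruvate into lactate when it is not passed on to mitochondria. In low oxygen, the prolyl hydroxylases of the Egln family no longer mark the HIF alpha subunits for destruction. The stabilised subunits pair with Arnt and raise transcription of glucose transporters, most glycolytic enzymes and genes of blood vessel growth and acid handling. HIF activity is set mainly by protein stability, so the transcript of an alpha subunit is no measure of it. The epidermis has no blood vessels of its own and is supplied from the dermis, and keratinocytes are known for high rates of lactate production.

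The tissue labels were checked against marker genes. The 8 markers of differentiating keratinocytes summed to 35816 to 84374 TPM in epidermis, and the 8 fibroblast and matrix markers to 9.94 to 105 TPM there against 44456 to 69271 TPM in dermis. Endothelial markers summed to 4.07 to 10.2 TPM in epidermis and 258 to 397 TPM in dermis. Wound dermis replicate 2 stood apart. Its differentiating keratinocyte markers summed to 13496 TPM, against 538 and 307 TPM in dermis replicates 1 and 3, and the median marker stood at 22.7% of its epidermal mean there, against 1.12% and 0.515%. Basal keratinocyte markers were present in dermis replicate 1 as well: the 6 summed to 1850, 3356 and 243 TPM in dermis replicates 1, 2 and 3 and to 6711 to 17655 TPM in epidermis. Depth is unknown, since TPM keeps no record of reads. Epidermis libraries held 13117 to 14012 genes at 1 TPM or more, and dermis libraries 15958 to 16257. Actb alone took 3.57% to 4.53% of the epidermis libraries and 10.9% to 15.6% of the dermis libraries. The median gene was 0.42 lower in epidermis on the log2 scale; median-of-ratios scaling and quantile normalization moved it up by 0.39 and 0.50.

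Most of the genes were higher in wound epidermis. Of the 33 tested, 22 were higher and 2 lower (limma, Benjamini-Hochberg adjusted p below 0.05 over all genes tested), while 17.0% of all tested genes were called higher and 39.3% lower. Of the 2 lower, Slc2a3 entered the test through the dermis alone, so it had to differ. The median log2 fold change of the 33 was 1.22, or 1.65 above the median of all genes; under the other 2 scalings it was 1.70 and 1.35 above it. Together the 34 genes took 0.646%, 0.720% and 0.826% of all transcripts in epidermis replicates 1, 2 and 3, and 0.211%, 0.334% and 0.202% in the dermis replicates. For 21 of the 34, every epidermis library stood above every dermis library. For 3, Slc2a3 among them, every epidermis library stood below, and 10 overlapped. Over all genes tested, 20.8% stood above in this way and 45.3% below. Dermis replicate 2, which holds keratinocyte transcripts, was the highest dermis library for 27 of the 34. The share of all genes for which it was the highest was not computed, so 27 has no baseline here. The calls were 25 higher and 4 lower without dermis replicate 2. They were 20 higher and 2 lower without dermis replicate 1, which holds basal keratinocyte transcripts. The same 20 and 2 were found without dermis replicate 3 or without epidermis replicate 1 or 3. Over all genes, 2721 were higher and 6275 lower in the main fit. The counts were 2791 and 5803 without dermis replicate 2, and 2161 and 5526 without dermis replicate 1. In whole tissue, fewer cells of a type and less RNA per cell cannot be told apart.

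**Figure D1:**
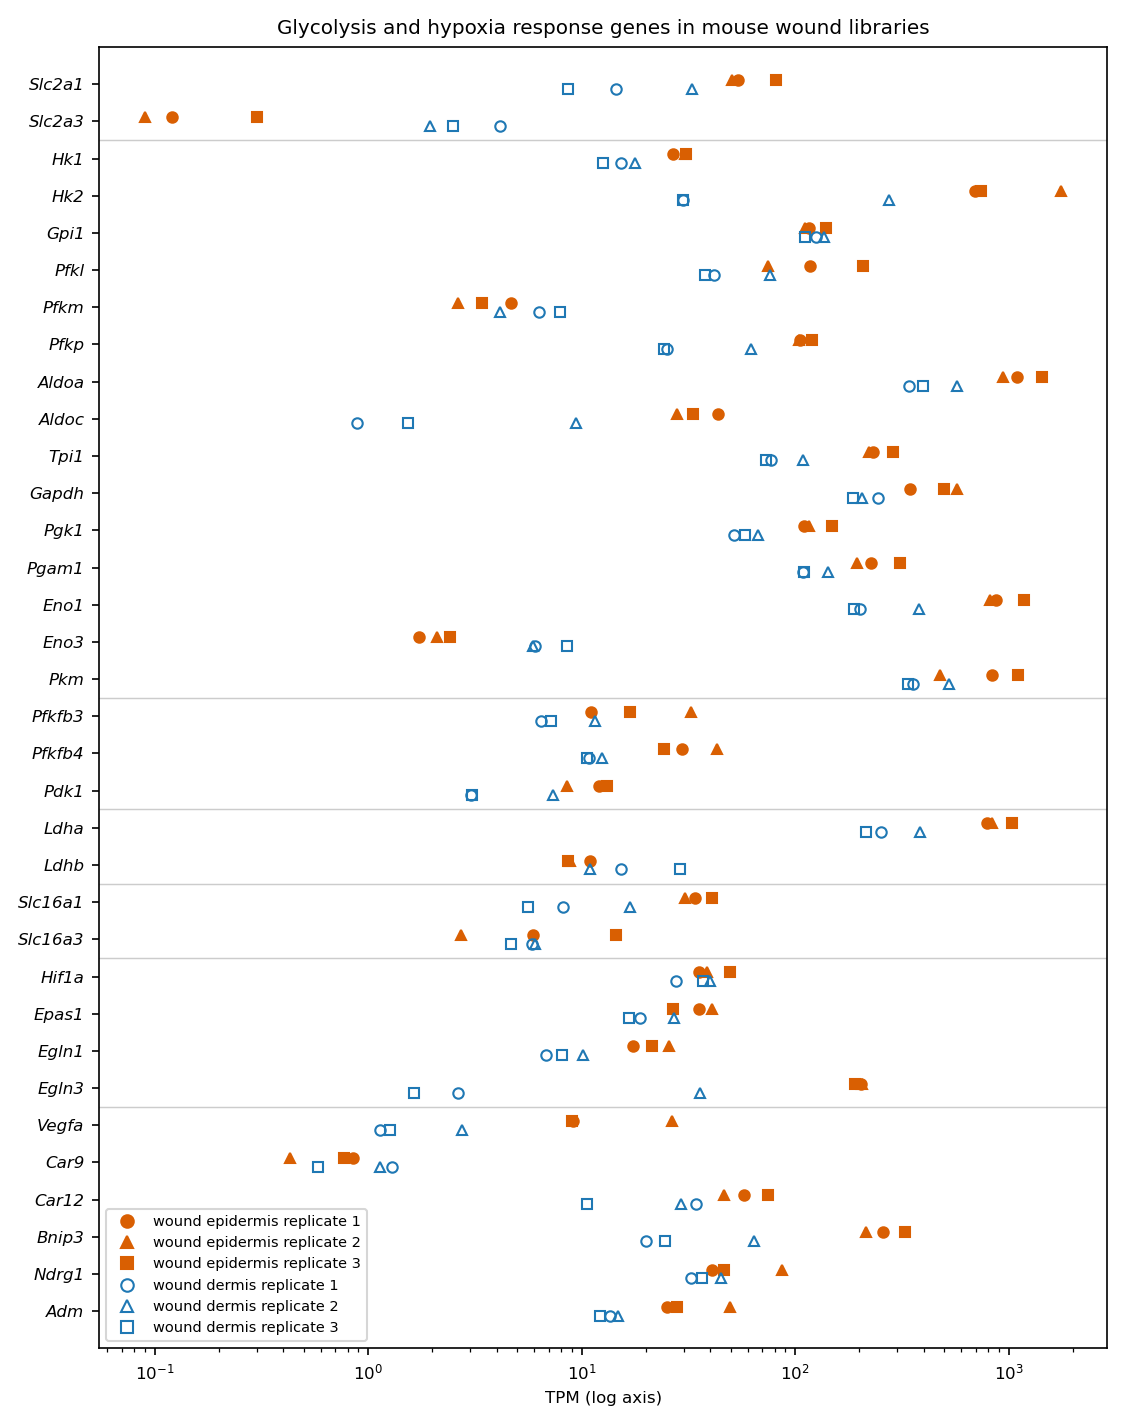
TPM of each of the 34 genes (log axis) in 3 wound epidermis libraries (filled, orange) and 3 wound dermis libraries (open, blue), with one marker shape per replicate number and grey lines between roles. The orange points lie to the right for 21 genes, and the blue triangle of dermis replicate 2 is the highest blue point for 27.

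Glucose enters the cell through transporters of the Slc2a family, and the pair measured here moved in opposite directions. In the values that follow, 3 numbers for a tissue are its replicates 1, 2 and 3 in that order. Slc2a1, the main glucose importer of keratinocytes (chr4:119108711-119137983, mm10), stood at 54.2, 50.7 and 81.05 TPM in epidermis and 14.6, 32.99 and 8.66 TPM in dermis. Its log2 fold change was 1.84 ± 0.46 (SE, limma adjusted p = 0.012), and no dermis library reached the epidermis. Slc2a3, a high-affinity importer known from neurons and white blood cells (chr6:122727809-122801640), stood at 0.12, 0.09 and 0.30 TPM in epidermis and 4.14, 1.94 and 2.49 TPM in dermis. It was near the lower limit of measurement in every epidermis library, and it entered the test through the dermis alone, so it had to differ. Its log2 fold change was -1.68 ± 0.24 (SE, limma adjusted p = 0.0012). The size depends on the value added before taking logs, from -3.46 with 0.1 TPM to -0.59 with 5 TPM, and was -0.86 after quantile normalization. Macrophage markers, with sums of 56.5 to 75.5 TPM in epidermis and 682 to 1185 TPM in dermis, moved the same way, and the 6 neutrophil markers summed to 27.2 to 32.0 and 17.9 to 28.7 TPM. Among the latter, Csf3r stood at 0.03 to 0.14 TPM in epidermis and 5.49 to 11.5 TPM in dermis, Cxcr2 at 27.0 to 31.9 and 9.80 to 13.0 TPM, Retnlg and Mpo reached at most 2.15 TPM, and Ly6g and Elane were listed at 0 in every library. The part of these cells in the level of Slc2a3 was not tested.

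Hexokinases trap glucose in the cell by phosphorylating it. Hk2, the inducible hexokinase (chr6:82725025-82774454), was among the most abundant of the 34 transcripts in epidermis, at 694, 1761 and 745 TPM, against 29.8, 276 and 29.9 TPM in dermis. Epidermis replicate 2 and dermis replicate 2 were each the highest of their group, and the groups did not overlap. The log2 fold change was 3.92 ± 0.87 (SE, limma adjusted p = 0.0073), and 4.98 without dermis replicate 2. Hk1, the form most cells express, was less abundant and differed less, at 26.9, 30.5 and 30.7 TPM in epidermis and 15.3, 17.8 and 12.6 TPM in dermis (log2 fold change 0.91 ± 0.20, SE, limma adjusted p = 0.0071).

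Gpi1, which makes fructose phosphate from glucose phosphate, was the enzyme of the upper pathway whose groups lay on top of each other. Its level was 122 ± 14.9 TPM in epidermis, close to the dermis level of 124 ± 12.3 TPM (SD over 3 libraries), with a log2 difference of -0.03 and a 95% interval from -0.48 to 0.43; the sign turned with scaling and with the library left out.

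Phosphofructokinase catalyses the committed step, and its 3 genes did not move together. Pfkp, the platelet form, stood at 105.8, 104.6 and 119.7 TPM in epidermis and 25.01, 61.9 and 24.3 TPM in dermis, without overlap (log2 fold change 1.68 ± 0.37, SE, limma adjusted p = 0.0067). Pfkl, the liver form, stood at 117, 74.6 and 207 TPM in epidermis and 41.9, 76.3 and 37.8 TPM in dermis. Epidermis replicate 2 fell just under dermis replicate 2. The log2 fold change of Pfkl was 1.28 ± 0.43 (SE, limma adjusted p = 0.036), and the call was lost without any one of epidermis replicates 1 and 3 and dermis replicates 1 and 3 (limma adjusted p from 0.080 to 0.11) and without a filter on low values (0.075). Pfkm, the muscle form, was the scarcest at 2.62 to 4.67 TPM in epidermis and 4.14 to 7.90 TPM in dermis; its log2 difference of -0.63 did not pass (limma adjusted p = 0.098), passed without dermis replicate 2 at -0.84 (0.043) and turned to 0.08 after quantile normalization. Exons of Pfkm overlap those of Senp1 and Gm26513, whose summed TPM reached 487% of that of Pfkm, and Pfkp overlaps Pitrm1 on the opposite strand, at up to 48.6% of its TPM. The sources used here do not tell whether the counting used strand.

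The aldolases cut the sugar into a pair of triose phosphates, and both rose. Aldoa, the form most tissues use (chr7:126795234-126800751), stood at 1094, 940.3 and 1426 TPM in epidermis and 340.4, 572 and 395 TPM in dermis (log2 fold change 1.42 ± 0.28, SE, limma adjusted p = 0.0046). Aldoc, the form best known from brain, stood at 43.3, 28.0 and 33.1 TPM in epidermis. In dermis it stood at 9.39 TPM in replicate 2 but at 0.89 and 1.54 TPM in replicates 1 and 3. Its log2 fold change, 3.26 ± 0.61 (SE, limma adjusted p = 0.0035), was the third in size among the 33 tested.

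From triose phosphate to pyruvate, 4 further enzymes that nearly every cell uses were higher in epidermis, by 0.99 to 1.51 on the log2 scale. Tpi1, triose phosphate isomerase, stood at 231, 221 and 286 TPM in epidermis and 77.3, 109.3 and 73.3 TPM in dermis (log2 fold change 1.51 ± 0.23, SE, limma adjusted p = 0.0015). Gapdh, which oxidises glyceraldehyde phosphate and often serves as a reference gene (chr6:125161715-125166467), stood at 345, 572 and 499 TPM in epidermis and 244, 205 and 187 TPM in dermis. Its groups did not overlap, and its log2 fold change was 1.13 ± 0.25 (SE, limma adjusted p = 0.0076). Pgk1, phosphoglycerate kinase, stood at 109.7, 116 and 148 TPM in epidermis against 51.9, 66.7 and 58.5 TPM in dermis (log2 fold change 1.06 ± 0.21, SE, limma adjusted p = 0.0043). Pgam1, phosphoglycerate mutase, stood at 225, 195 and 308 TPM against 108.5, 142 and 110.4 TPM (0.99 ± 0.24, SE, limma adjusted p = 0.011).

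The enolases moved in opposite directions. Eno1, the ubiquitous enolase (chr4:150236721-150248879), stood at 874, 814 and 1185 TPM in epidermis and 202, 378 and 189 TPM in dermis (log2 fold change 1.95 ± 0.32, SE, limma adjusted p = 0.0022). Eno3, the enolase of muscle, stood at 1.72, 2.09 and 2.41 TPM in epidermis and 6.04, 5.93 and 8.54 TPM in dermis, lower in every epidermis library (-1.34 ± 0.22, SE, limma adjusted p = 0.0020). After quantile normalization Eno3 was at -0.61 (limma adjusted p = 0.056). The 9 skeletal muscle markers summed to 36.8 to 48.3 TPM in epidermis and 19.3 to 54.9 TPM in dermis; these markers did not move together. Tnnt3 was listed at 0 in epidermis and stood at 7.56, 5.48 and 12.4 TPM in dermis, Mylpf stood at 31.7 to 44.8 TPM in epidermis and 7.79 to 15.0 TPM in dermis, and Acta1 reached 15.75 TPM in dermis replicate 3 and at most 0.54 TPM in the other libraries. Tnni2 stood at 2.16 to 7.71 TPM over all libraries, and Ckm, Myh1, Myh2, Myh4 and Actn3 reached at most 1.54 TPM. Their part in the level of Eno3 was not tested.

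Pkm, pyruvate kinase, ended the pathway without passing the threshold. It stood at 834, 476 and 1111 TPM in epidermis and 358, 524 and 336 TPM in dermis, so epidermis replicate 2 lay inside the dermis range. The log2 difference was 0.93 ± 0.36 (SE, limma adjusted p = 0.058), and it passed without that library (1.27, 0.014), without dermis replicate 2 (1.13, 0.044) and under median-of-ratios scaling (1.41, 0.0049). In all, 11 of the 15 glycolytic enzymes were higher and 1, Eno3, was lower, beside 17.0% and 39.3% of all genes. The summed transcripts of the 15 enzymes took 0.482%, 0.545% and 0.624% of the epidermis libraries and 0.163%, 0.258% and 0.158% of the dermis libraries.

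**Figure D2:**
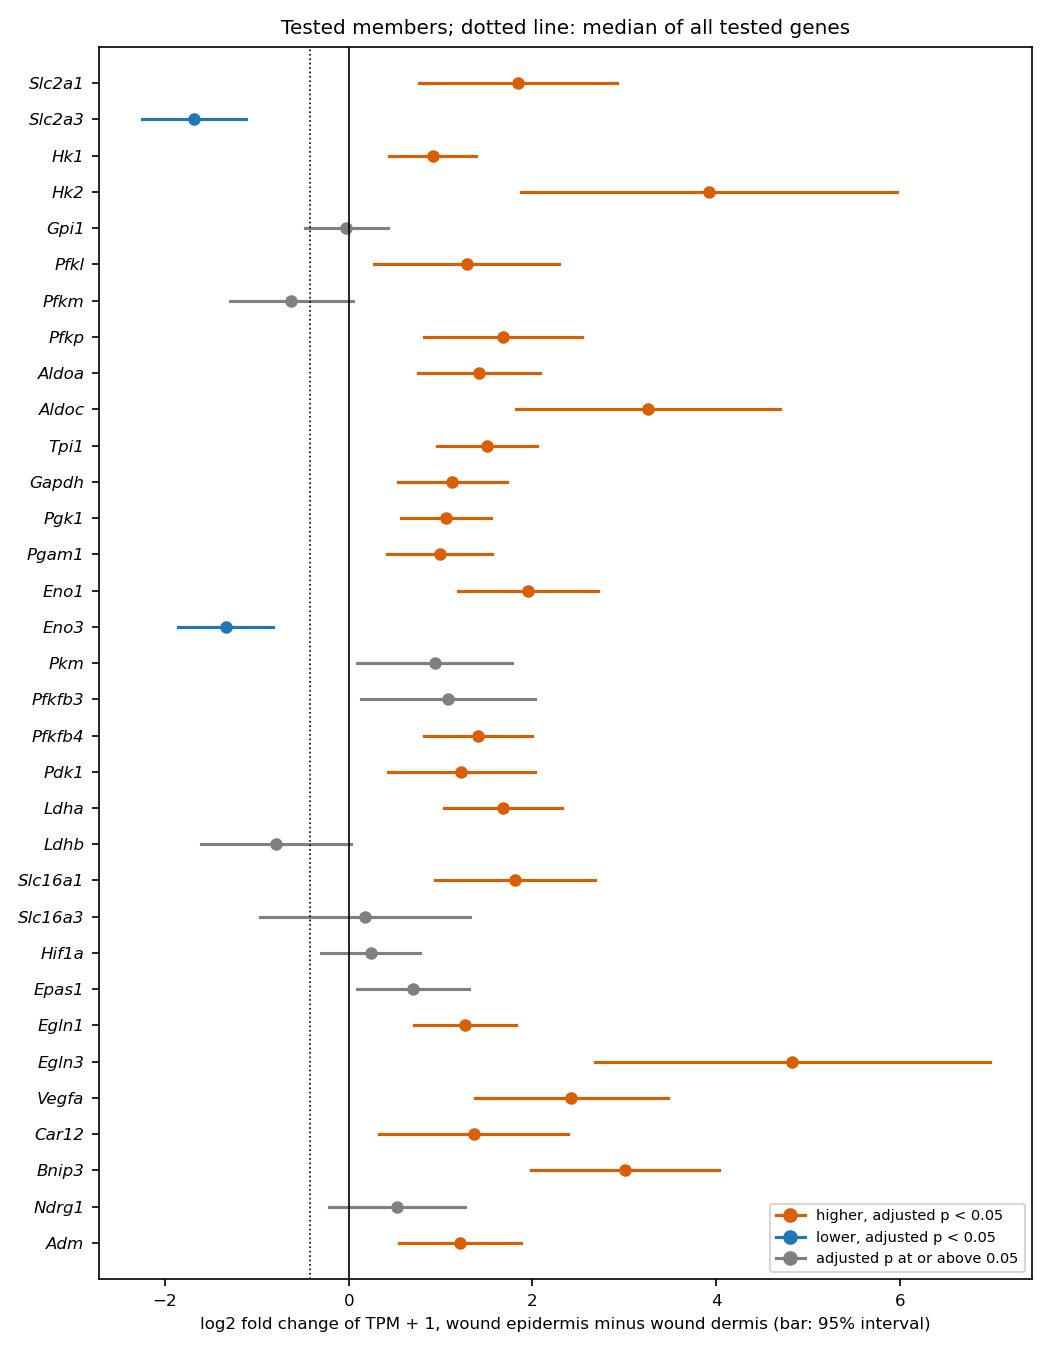
Log2 fold change of TPM + 1 (wound epidermis minus wound dermis, n = 3 each) of the 33 tested genes with 95% intervals; orange marks genes called higher, blue genes called lower and grey genes not called, and the dotted line is the median of all tested genes at -0.42. Egln3, Hk2, Aldoc and Bnip3 lie farthest right, and Slc2a3 and Eno3 are the 2 genes called lower. Slc2a3 entered the test through the dermis alone.

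Near-identical gene copies can share the reads of Gapdh, Eno1 and Pgk1. At 95% identity or more over at least 200 bases, Gapdh had 77 annotated copies. They summed to up to 448 TPM, in epidermis replicate 3, where Gapdh stood at 499 TPM, and to 112% of Gapdh in dermis replicate 3, with 210.2 against 187 TPM. The processed pseudogene Gm13394 alone was listed at 249.8 TPM on average in epidermis and 107 TPM in dermis. Eno1 had 3 copies, summing to up to 835 TPM, led by Eno1b with 99.5% identity over 1736 bases; Pgk1 had Pgk1-rs7, with 100% identity over 1255 bases. The split of reads between gene and copy is therefore uncertain for these 3. With the copies added, an alternative chosen after seeing the data, Gapdh summed to 836 ± 129.6 TPM in epidermis, above the 423 ± 26.0 TPM of dermis (SD over 3 libraries), with a log2 fold change of 0.97 (limma adjusted p = 0.0068). Eno1 was then at 1.97 (limma adjusted p = 0.0029) and Pgk1 at 1.09 (0.0059), so all 3 stayed higher.

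Flow through glycolysis is set by regulators at both ends. Pfkfb3 and Pfkfb4 make the sugar phosphate that activates phosphofructokinase, and Pdk1 keeps pyruvate out of mitochondria by inhibiting pyruvate dehydrogenase. Pfkfb4 stood at 29.7, 43.2 and 24.2 TPM in epidermis and 10.8, 12.4 and 10.6 TPM in dermis, without overlap (log2 fold change 1.41 ± 0.25, SE, limma adjusted p = 0.0029). Pfkfb3 stood at 11.1, 32.5 and 16.8 TPM in epidermis and 6.42, 11.6 and 7.20 TPM in dermis. Its groups overlapped by a little, and its log2 difference of 1.08 ± 0.40 (SE, limma adjusted p = 0.054) passed in 5 alternatives, among them both other scalings. Pdk1 stood at 12.1, 8.51 and 13.1 TPM in epidermis and 3.04, 7.35 and 3.07 TPM in dermis (log2 fold change 1.22 ± 0.34, SE, limma adjusted p = 0.018). The call of Pdk1 was lost without any one of epidermis replicates 1 and 3 and dermis replicates 1 and 3 (limma adjusted p from 0.054 to 0.067), and its size fell to 0.79 with 5 TPM added.

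Lactate is made from pyruvate by tetramers of the Ldha and Ldhb subunits and leaves or enters the cell by monocarboxylate transporters. Ldha, the subunit that favours lactate (chr7:46841475-46855627), stood at 794, 838 and 1041 TPM in epidermis and 253, 385 and 216 TPM in dermis (log2 fold change 1.68 ± 0.27, SE, limma adjusted p = 0.0020). Ldhb, the subunit of heart and other oxidative tissues, stood at 10.9, 8.84 and 8.62 TPM in epidermis and 15.2, 11.0 and 28.9 TPM in dermis. Every epidermis library was below every dermis library (10.92 against 10.98 TPM at the closest pair), and the log2 difference of -0.79 did not pass (limma adjusted p = 0.089). It passed without dermis replicate 2, at -1.08 (limma adjusted p = 0.029). Slc16a1, a lactate carrier that works in both directions, stood at 33.9, 30.6 and 40.8 TPM in epidermis and 8.20, 16.8 and 5.58 TPM in dermis (log2 fold change 1.81 ± 0.37, SE, limma adjusted p = 0.0052). Slc16a3, the lactate exporter of highly glycolytic cells, varied more within epidermis, at 5.90, 2.71 and 14.4 TPM, than between tissues, with 5.87, 6.02 and 4.65 TPM in dermis. Its log2 difference was 0.18 with a 95% interval from -0.96 to 1.32, and -0.36 without epidermis replicate 3.

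The transcripts of the HIF alpha subunits Hif1a and Epas1 did not pass the threshold, while those of the hydroxylases Egln1 and Egln3 did. Hif1a (chr12:73901375-73947530) stood at 35.6, 38.5 and 49.3 TPM in epidermis and 27.6, 39.7 and 37.2 TPM in dermis. The groups overlapped, and the log2 difference of 0.24 had a 95% interval from -0.30 to 0.77 (limma adjusted p = 0.40); it was 0.70 under median-of-ratios scaling (0.019). Epas1, the other alpha subunit, which is best known from endothelium, stood at 35.3, 40.9 and 26.8 TPM in epidermis and 18.8, 27.1 and 16.7 TPM in dermis, with epidermis replicate 3 just under dermis replicate 2. Its log2 difference of 0.70 ± 0.26 (SE, limma adjusted p = 0.052) passed in 6 alternatives, including both other scalings and the fit without dermis replicate 2 (0.024).

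Egln3, a prolyl hydroxylase that is itself a HIF target (chr12:54178981-54203860), had the largest fold change of the 33 tested. It stood at 203, 205 and 191 TPM in epidermis and 2.64, 35.7 and 1.63 TPM in dermis. The coefficient of variation was 3.84% in epidermis, while dermis replicate 2 stood far above the other dermis libraries. The log2 fold change was 4.83 ± 0.91 (SE, limma adjusted p = 0.0037), and 6.02 without dermis replicate 2. Egln1, the main oxygen-sensing hydroxylase of most cells, stood at 17.4, 25.7 and 21.3 TPM in epidermis and 6.77, 10.1 and 8.09 TPM in dermis (log2 fold change 1.27 ± 0.24, SE, limma adjusted p = 0.0035). Egln2, the remaining hydroxylase of the family and not one of the 34, stood at 25.2, 12.2 and 28.0 TPM in epidermis and 29.1, 31.3 and 43.9 TPM in dermis, a log2 difference of -0.71 that did not pass (limma adjusted p = 0.12).

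Among the 6 hypoxia targets, 4 of the 5 tested were higher, beside 17.0% of all genes. Bnip3, a mitochondrial protein that promotes removal of mitochondria (chr7:138890836-138909519), stood at 257, 215 and 327 TPM in epidermis and 20.0, 64.3 and 24.5 TPM in dermis (log2 fold change 3.01 ± 0.43, SE, limma adjusted p = 0.0012). Vegfa, the growth factor that draws in blood vessels (chr17:46016993-46032369), stood at 9.07, 26.6 and 9.04 TPM in epidermis and 1.13, 2.74 and 1.27 TPM in dermis. Epidermis replicate 2 was the highest by far, and no dermis library reached any epidermis library. Its log2 fold change was 2.42 ± 0.45 (SE, limma adjusted p = 0.0034), and 1.46 with 5 TPM added in place of 1.

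Adm, adrenomedullin, a peptide that widens vessels, stood at 25.1, 49.3 and 27.9 TPM in epidermis and 13.6, 14.7 and 12.2 TPM in dermis (log2 fold change 1.22 ± 0.28, SE, limma adjusted p = 0.0088). Car12, a carbonic anhydrase of the cell surface that handles acid, stood at 57.5, 46.5 and 74.6 TPM in epidermis and 34.4, 29.2 and 10.6 TPM in dermis. It was higher in every epidermis library (log2 fold change 1.36 ± 0.44, SE, limma adjusted p = 0.032). The call was lost without epidermis replicate 1 (0.076) or 3 (limma adjusted p = 0.088) and without a filter on low values (0.067), and the change was 0.86 without dermis replicate 3. Ndrg1, a stress-responsive protein, stood at 40.6 to 86.6 TPM in epidermis and 32.5 to 45.0 TPM in dermis and did not pass (0.52, limma adjusted p = 0.19). Car9, the carbonic anhydrase most often used as a marker of hypoxia, stood at 0.43 to 0.85 TPM in epidermis and 0.58 to 1.29 TPM in dermis, too low for the test; the antisense Gm12454 overlaps it at up to 114% of its TPM.

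Shares within a family do not move with the scaling between libraries. Of 11 families, 8 had shares without overlap between the tissues. Of all genes tested, 66.0% had levels without overlap, but levels are no baseline for shares, and none was computed for shares. Slc2a1 and Slc2a3, Eno1 and Eno3, and Ldha and Ldhb lay apart in level in opposite directions, so their shares had to lie apart. Among the 8 is also the share of Car9 in the sum of Car9 and Car12, where Car9 was too low for the test. Each of the 8 had p = 0.1 in a two-sided exact permutation test, the smallest that 3 against 3 allows, so none could pass 0.05 (0.14 adjusted over the families). Hk2 made up 96.9% ± 1.24 of the Hk1 and Hk2 transcripts in epidermis and 76.8% ± 14.99 in dermis (SD, n = 3 each). Hk3, at 2.43, 1.34 and 4.32 TPM in dermis and at most 0.14 TPM in epidermis, is not counted in that share. Ldha made up 98.9% ± 0.27 and 93.2% ± 4.63 of the Ldha and Ldhb transcripts. Slc2a1 made up 99.7% ± 0.10 and 83.3% ± 9.63 of the pair of glucose importers, and Slc16a1 83.6% ± 9.07 and 62.2% ± 10.1 of the pair of lactate carriers. The aldolases went the other way, since Aldoc took the larger share in epidermis: Aldoa held 97.0% ± 0.77 there and 99.2% ± 0.75 in dermis.

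Egln1 was 7.89%, 11.1% and 10.0% of the Egln1 and Egln3 transcripts in epidermis and 71.9%, 22.1% and 83.2% in dermis, where replicate 2 lay nearest to the epidermis. That share depends on leaving out Egln2, which was the most abundant of the 3 hydroxylases in dermis replicates 1 and 3. With Egln2 counted, an alternative chosen after seeing the data, Egln1 made up 8.84% ± 1.75 of hydroxylase transcripts in epidermis and 15.3% ± 2.21 in dermis (SD, n = 3 each). Egln3 then made up 82.7%, 84.4% and 79.5% in epidermis and 6.85%, 46.3% and 3.04% in dermis (exact permutation p = 0.1). In 3 families the shares overlapped. Pfkp made up 46.8% ± 10.6 and 37.5% ± 5.21 of phosphofructokinase transcripts (exact permutation p = 0.2, n = 3 each). Hif1a made up 54.5% ± 8.95 and 62.7% ± 5.46 of the Hif1a and Epas1 transcripts (exact permutation p = 0.3). Pfkfb3 made up 37.1% ± 8.56 and 42.0% ± 5.61 of the Pfkfb3 and Pfkfb4 transcripts (exact permutation p = 0.6).

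**Figure D3:**
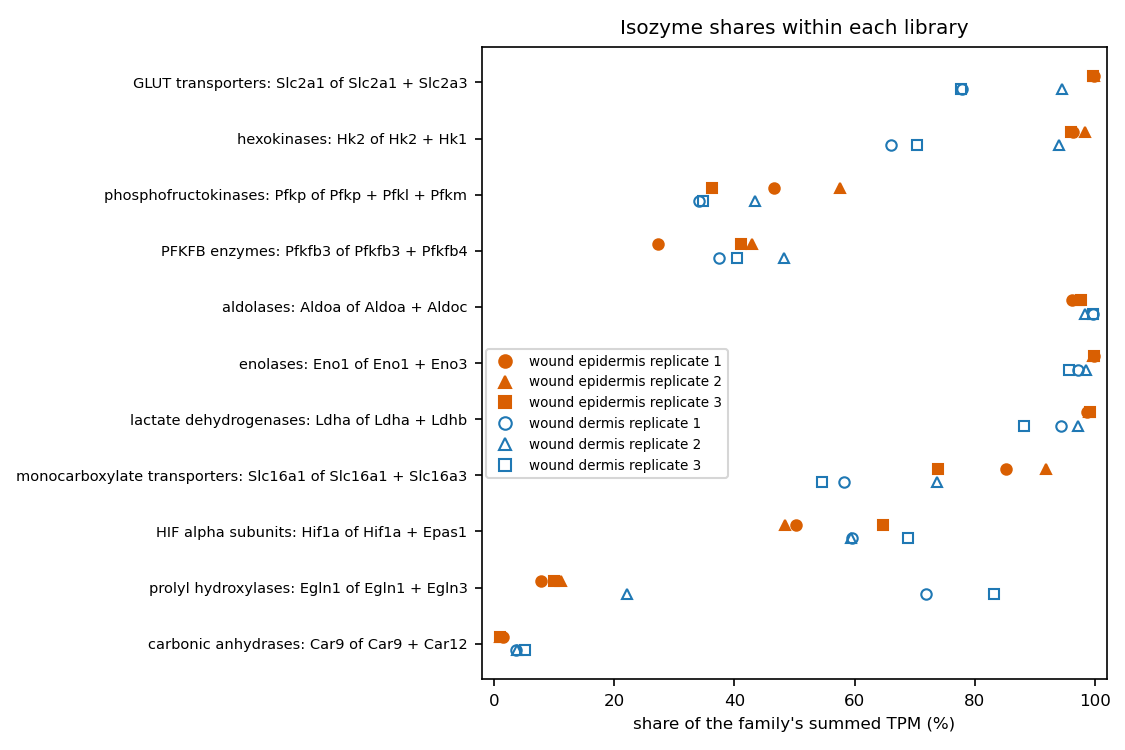
Share of each family's summed TPM (x axis, %) taken by its first gene in each of the 3 wound epidermis (filled, orange) and 3 wound dermis (open, blue) libraries. In 8 of the 11 families the tissues do not overlap, and the share of Egln1 in the sum of Egln1 and Egln3 runs from 7.89% to 11.1% in epidermis and from 22.1% to 83.2% in dermis.

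Within epidermis the 34 genes did not rise and fall together. The median coefficient of variation was 21.9% in epidermis and 31.1% in dermis. Epidermis replicate 2 was the highest of its group for 10 genes and the lowest for 18, and epidermis replicate 3 was the highest for 20. These counts were not taken over all genes. The library factors of median-of-ratios scaling were 0.87, 0.73 and 0.96 for epidermis replicates 1, 2 and 3. The typical gene was thus also lowest in replicate 2 and highest in replicate 3, and the ratios below are not corrected for this. Against the mean of the other replicates, replicate 2 held 2.94 times as much Vegfa, 2.45 times as much Hk2, 2.33 times as much Pfkfb3, 1.99 times as much Ndrg1, 1.86 times as much Adm and 1.61 times as much Pfkfb4. The same library held 0.267 times as much Slc16a3, 0.461 times as much Pfkl and 0.490 times as much Pkm, while Egln3 stood at 1.04 and Ldha at 0.914 of the others. This library also had the highest sum of differentiating keratinocyte markers, 84374 TPM against 58598 and 35816 TPM, and the lowest of basal keratinocyte markers, 6711 TPM against 9740 and 17655 TPM; their part in this pattern was not tested. The contrast is a description of 1 library.

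**Figure D4:**
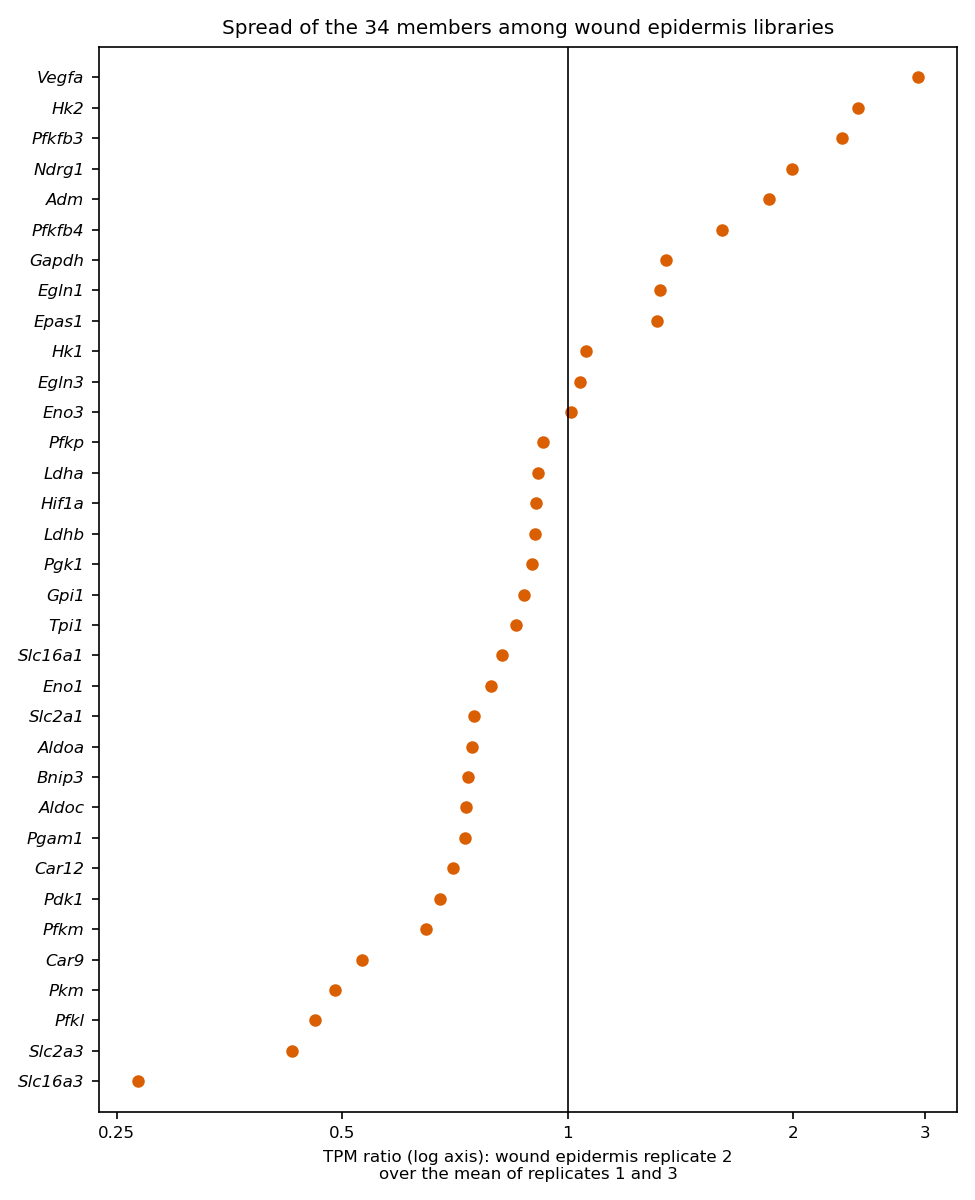
Ratio of TPM in wound epidermis replicate 2 to the mean of replicates 1 and 3 (log axis) for each of the 34 genes, sorted; the line marks 1. Vegfa at 2.94, Hk2 at 2.45 and Pfkfb3 at 2.33 lie at one end and Slc16a3 at 0.267 at the other.

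The lists of genes around the pathway were not mostly higher. Of 12 other glycolysis isozymes and transporters tested (24 listed), 1 was higher and 7 lower, beside 17.0% and 39.3% of all genes. Their median log2 fold change was -0.64, and that of all genes was -0.42. Slc2a10, Eno2 and Hk3 reached 1 TPM in dermis alone and entered the test through it, so they had to differ. Those with the smallest adjusted p were the transporter Slc2a10 (0 to 0.02 TPM against 4.51 to 8.70 TPM in dermis, limma adjusted p = 0.00014), the neuronal enolase Eno2 (0.18 to 0.69 against 3.25 to 5.97 TPM, 0.00080), the hexokinase of white blood cells Hk3 (0 to 0.14 against 1.34 to 4.32 TPM, 0.0026) and Bpgm, the bisphosphoglycerate mutase best known from red cells (2.78 to 9.16 against 21.9 to 27.9 TPM, 0.0029). Red blood cell markers summed to 3.73 to 4.59 TPM in epidermis and 19.9 to 73.7 TPM in dermis, and their part in the level of Bpgm was not tested. Gapdhs, the sperm form of Gapdh, was the exception at 2.21 to 5.80 TPM in epidermis and 0.27 to 1.39 TPM in dermis (log2 fold change 1.35, limma adjusted p = 0.014). The count of lower genes was 4 under median-of-ratios scaling and 4 without dermis replicate 3. Over all genes tested, 6275 were lower in the main fit, 4850 under that scaling and 5373 without that library.

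Among 13 other components of the HIF pathway tested, 2 were higher and 3 lower (median log2 fold change -0.09). Over all genes 17.0% were higher and 39.3% lower. Under median-of-ratios scaling 4 of these components were higher, and 4342 of all 15982 genes in place of 2721. Arnt, the partner of the alpha subunits, stood at 13.3, 11.7 and 13.9 TPM in epidermis and 37.8, 36.0 and 43.5 TPM in dermis (-1.52 ± 0.19, SE, limma adjusted p = 0.00054). Vhl, which recognises hydroxylated alpha subunits for destruction, stood at 5.65, 3.44 and 6.32 TPM in epidermis and 18.9, 10.3 and 19.9 TPM in dermis (-1.48 ± 0.32, SE, limma adjusted p = 0.0067). Npas2, a clock protein of the same protein family as the alpha subunits, was also lower (-2.78, limma adjusted p = 0.00013), having entered the test through the dermis alone. Cited2, which competes with HIF for its coactivators, stood at 52.7, 55.0 and 47.1 TPM in epidermis and 21.9, 18.1 and 18.6 TPM in dermis (1.36 ± 0.18, SE, limma adjusted p = 0.00087), and Siah2, a ligase that degrades Egln proteins, was higher too (1.06, limma adjusted p = 0.0076).

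Other known hypoxia targets were called in both directions. Of 37 tested, 13 were higher in epidermis and 16 lower, beside 17.0% and 39.3% of all genes. Their median log2 fold change of -0.40 lay beside the -0.42 of all genes. Of the 16 lower, 6 entered the test through the dermis alone, Lox, Loxl2 and Angptl4 among them, so they had to differ. Lox, lysyl oxidase, stood at 0 to 0.13 TPM in epidermis and 67.2 to 137 TPM in dermis (-6.65 ± 0.30, SE, limma adjusted p = 1.2e-05), Loxl2 at 0.37 to 0.72 and 26.9 to 43.6 TPM (-4.52, 1.7e-05) and Plod1, a lysyl hydroxylase, at 1.15 to 2.09 and 23.8 to 32.5 TPM (-3.41, 3.8e-05). Angptl4, a regulator of lipoprotein lipase, was lower as well (-4.15, limma adjusted p = 9.3e-05). The list holds further genes of collagen hydroxylation, named here after their values were seen: P4ha1, P4ha2 and Plod2 were at -2.27, -3.17 and -3.56, and P4hb did not pass (-0.32, limma adjusted p = 0.32). Dermis carries nearly all of the fibroblast and matrix markers, and their part in these values was not tested.

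In the other direction, Insig2, a regulator of sterol synthesis, stood at 175, 151 and 131 TPM in epidermis and 29.9, 57.1 and 38.5 TPM in dermis (1.88 ± 0.27, SE, limma adjusted p = 0.0012). Ero1l, which forms disulphide bonds in the endoplasmic reticulum, stood at 32.0, 44.2 and 43.6 TPM in epidermis and 9.65, 17.0 and 11.4 TPM in dermis (1.60 ± 0.26, SE, limma adjusted p = 0.0021). The mitochondrial proteins Fam162a and Higd1a, named after their values were seen, were as abundant in epidermis as the leading glycolytic enzymes, at 1382 ± 335 and 1155 ± 86.6 TPM, against 239 ± 167 and 237 ± 170.2 TPM in dermis (SD, n = 3 each). Their log2 fold changes were 2.72 and 2.50 (limma adjusted p = 0.0028 and 0.0030).

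The counts for the routes that take up pyruvate or glucose moved with the scaling. In the main fit they are read against the 17.0% of all genes called higher and the 39.3% called lower, or 2721 and 6275 of 15982. Under median-of-ratios scaling 4342 of all genes were higher and 4850 lower, and after quantile normalization 4694 and 4191. Without single libraries these counts ran from 2124 to 2791 and from 5291 to 6376. List counts under a changed setting are to be read beside the counts of that setting. Of 13 tested genes of pyruvate dehydrogenase and the pyruvate carriers, 0 were higher and 8 lower (median log2 fold change -1.06); 1 was higher and 4 lower under median-of-ratios scaling, and 1 and 5 after quantile normalization. Pdk2, a sister kinase of Pdk1, stood at 0.63, 0.50 and 1.58 TPM in epidermis and 11.7, 11.0 and 12.9 TPM in dermis (-2.80 ± 0.26, SE, limma adjusted p = 0.00014), opposite in direction to Pdk1. The opposing phosphatase Pdp1 (-2.11, limma adjusted p = 0.00036), the mitochondrial pyruvate carrier Mpc1 (-2.48, 0.0015) and the dehydrogenase subunit Pdha1 (-1.36, 0.0038) were lower too. The count of lower genes was 4 without epidermis replicate 1 or dermis replicate 3 and 5 without dermis replicate 1 or 2.

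Of 20 genes of the tricarboxylic acid cycle, 2 were higher and 9 lower (median log2 fold change -0.64), with 5 higher and 6 lower under median-of-ratios scaling. The aconitase Aco1 (-2.04, limma adjusted p = 0.0041) and the isocitrate dehydrogenase Idh1 (-2.20, 0.0069), both cytosolic forms, and the mitochondrial Idh2 (-1.42, 0.0063) were lower. Ogdh, of the oxoglutarate dehydrogenase complex, stood at 128, 106 and 137 TPM in epidermis and 52.2, 76.3 and 56.6 TPM in dermis (1.00 ± 0.22, SE, limma adjusted p = 0.0072), and Cs, citrate synthase, was higher by 0.71 (limma adjusted p = 0.014, and 0.053 without epidermis replicate 1). Without epidermis replicate 1 the count of higher genes was 1, and without dermis replicate 3 the count of lower genes was 5.

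The pentose phosphate pathway, which branches off after hexokinase and yields NADPH, had 3 of 9 tested genes higher and 2 lower (median log2 fold change 0.05). G6pdx, its entry enzyme, stood at 59.3, 54.4 and 50.2 TPM in epidermis and 18.3, 26.4 and 14.0 TPM in dermis (1.48 ± 0.26, SE, limma adjusted p = 0.0026), and Pgls, the next enzyme, at 88.1, 94.8 and 91.5 TPM and 41.4, 54.2 and 50.2 TPM (0.91 ± 0.19, SE, limma adjusted p = 0.0053). The genes called lower, Prps1 (-1.04, limma adjusted p = 0.043) and Prps2 (-0.68, 0.039), which draw on its product, were lost under both other scalings, where 5 genes were higher and 0 lower. The count of lower genes was also 0 without dermis replicate 2 or 3, and 1 without epidermis replicate 1 or 2 or dermis replicate 1.

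Genes of glycogen storage and breakdown were 0 higher and 9 lower of 14 tested (median log2 fold change -1.04), with 0 higher and 6 lower under median-of-ratios scaling and 1 and 6 after quantile normalization. Gyg, glycogenin, which primes the glycogen chain, stood at 1.30, 0.73 and 1.44 TPM in epidermis and 32.8, 34.8 and 55.2 TPM in dermis (-4.26 ± 0.27, SE, limma adjusted p = 3.0e-05). The glycogen phosphorylase Pygb (-2.02, limma adjusted p = 0.00016), the phosphorylase kinase subunit Phka1 (-1.67, 0.00023) and Pgm3 (-1.99, 0.00050), a mutase that serves amino sugar synthesis rather than glycogen, were also lower. Of 6 gluconeogenesis genes, Pck2, the mitochondrial phosphoenolpyruvate carboxykinase, and G6pc3, the widely expressed glucose phosphatase, were abundant enough to test, and both were lower, by -2.21 and -1.88 (limma adjusted p = 0.00031 and 0.00088). Phka1 and Pck2 entered the test through the dermis alone.

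**Figure D5:**
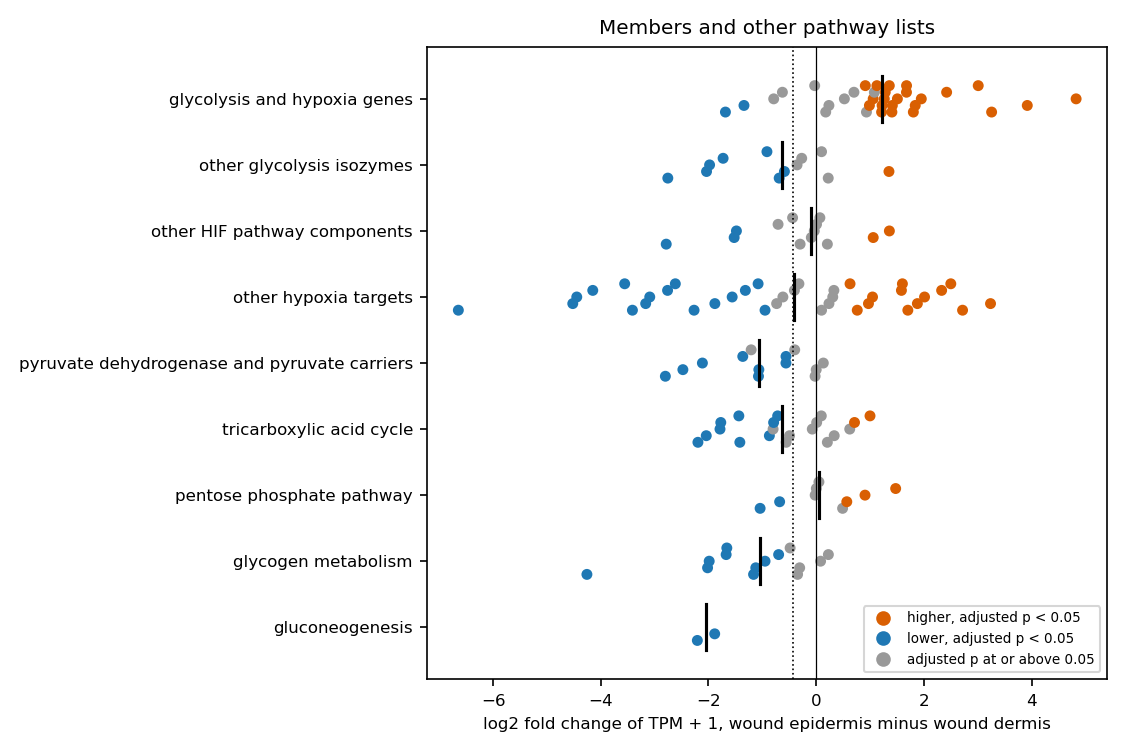
Log2 fold change of TPM + 1 (x axis, wound epidermis minus wound dermis) of each tested gene in the 34 genes and in 8 lists around them; orange and blue mark genes called higher and lower, grey those not called, short bars the medians and the dotted line the median of all tested genes. The median of the 34 genes lies at 1.22 and those of the other lists between -2.05 and 0.05.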

How the data were processed

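Values are TPM computed by the authors for each library and deposited as 1 table per species. Bowtie 1.0.0, RSEM 1.2.31 and the builds mm10 and Rnor_6.0 are named per the submitters' processing notes. The sources used here give neither settings nor annotation. RNA input and read length each took 2 values per the labels' protocols, which do not say for which libraries, so neither can be told apart from tissue. Depth is unknown, so no counting intervals are given. Symbols were paired with 49289 of 49548 mouse Ensembl identifiers. Coordinates are from GENCODE on mm10, by identifier. The rat table was not used, since its identifiers were not paired with symbols here.

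The test was limma 3.58.1 (R 4.3.3, with its mean-variance trend) on log2(TPM + 1), for mouse genes that reached 1 TPM in 3 or more of the 6 libraries, with Benjamini-Hochberg adjustment over 15982 genes and a threshold of 0.05. This scale understates changes of scarce genes. The fit was tested on simulated data. Family shares were compared by exact permutation. The genes, lists and tests were chosen with earlier results of these data known, so counts over lists carry no test.

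All 34 genes are described. Values per library are given for those called whose mean in the higher tissue was 10 TPM or more, for families that moved in opposite directions, and for Hif1a, Epas1, Vegfa and Gapdh. From each other list, up to 4 called genes with the smallest adjusted p are named, and up to 2 against the majority. Alternatives changed the pseudocount, filter, scaling, abundant genes, variance model, replicate block, copies and libraries included.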

Additional observations from a re-analysis of the deposited data

How the results depend on the processing

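The count of the 33 genes called higher ran from 20 to 26 over all alternatives and stayed within 1.5 times of 22. The count called lower was 1 with a filter of 5 TPM, where Slc2a3 was not tested, and 1 after quantile normalization, and ran from 2 to 4 when single libraries were left out, with 4 without dermis replicate 2. Over all genes, 2721 were higher and 6275 lower; under median-of-ratios scaling 4342 were higher and 4850 lower, and after quantile normalization 4694 and 4191, so that 47.2% and 52.8% of calls were higher in place of 30.2%. Turns of sign were sought in the 33 genes and in those picked from the other lists by the naming rule above. The log2 differences of 4 of these genes turned sign, none of them past the threshold after turning. Gpi1 stood at 0.44 under median-of-ratios scaling, at 0.035 after quantile normalization and from -0.12 to 0.039 without single libraries. After quantile normalization Pfkm stood at 0.081 and Prps2 at 0.059. Slc16a3 ran from -0.36 to 0.67 without single libraries, the lowest without epidermis replicate 3. The replicate numbers were not treated as pairs, since deviations of same-numbered libraries correlated at -0.14, 0.09 and 0.19 and 1 of 3 epidermis libraries correlated best with its own number. With the number as a replicate block 22 of the 33 were higher and 2 lower; 20 of the 22 were called in both fits, Pfkl (limma adjusted p = 0.073) and Car12 (0.054) were not called with the block, and Pfkfb3 (0.015) and Epas1 (0.039) were. With it, 2464 genes were higher and 5940 lower over all. No difference in family share turned sign, but some moved in size: for Car9 from -3.05 to -5.46 percentage points with 1 TPM added, for Hk2 from 20.1 to 9.31 and for Egln1 from -49.4 to -28.8 with group means, for Egln1 to -6.43 with Egln2 counted, for Ldha from 5.68 to 3.15 without dermis replicate 3, and those of Pfkp, Pfkfb3 and Hif1a, whose shares overlapped, by over 1.5 times without single libraries. TPM gives no depth, so genes near 1 TPM, such as Car9 and Slc2a3 in epidermis, carry an unknown counting error.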
